A study of Mus musculus with 6 samples.

Results

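The ATF4 stress regulators are 10 genes (Atf4, Atf5, Atf3, Ddit3, Cebpb, Nupr1, Trib3, Chac1, Ddit4 and Sesn2) out of the 55416 genes in the count table, found by matching Ensembl identifiers to GENCODE gene names. They were selected on this same comparison of WT and KO EpiLCs, so their values and fold changes are given here as a description without a test of their own, followed by the arms of the stress response around them. RNA-seq was performed on EpiLCs, the formative cells obtained from mouse embryonic stem cells after 48 h on fibronectin in N2B27 medium with 1% KSR (a serum replacement), bFGF and Activin A. The growth factors are labelled 12 and 20 ng/ml, whereas the methods and the series description give the same figures in µg/ml. WT EpiLCs came from 46C cells, a line that carries GFP under the neural gene Sox1, and KO EpiLCs came from a single clone of 46C with a homozygous nucleotide insertion early in the Oct6 (Pou3f1) coding sequence. Each genotype had 3 biological replicates, which the series description calls paired, so that the comparison is that of a clone with its parental line.

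When cells are short of amino acids, or when proteins misfold in the endoplasmic reticulum (ER), kinases phosphorylate the translation factor eIF2. General translation then slows while translation of the Atf4 mRNA increases, and ATF4 protein binds C/EBP-ATF response elements (CAREs) in promoters and switches on genes for amino acid synthesis, amino acid uptake and tRNA charging. This programme is known as the integrated stress response. ATF4 also induces other transcription factors, such as CHOP (Ddit3) and ATF3, and brakes such as TRIB3 and GADD34 (Ppp1r15a). RNA-seq measures the mRNAs and not the translation step at which ATF4 is best known to be controlled.

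Library totals ran from 10995505 to 14680930 counts. Oct6 itself had 2156, 1563 and 1805 counts in the WT libraries and 1567, 1825 and 1708 in the KO libraries (log2 fold change −0.10, SE 0.11, edgeR adjusted p = 0.574), and a count per gene cannot show a small insertion. Among 7 epiblast markers, with summed levels of 2646 to 2927 CPM in WT EpiLCs and 2623 to 2750 CPM in KO EpiLCs, 4 passed as higher in KO cells (Sox2, Nanog, Fgf5 and Otx2) and 0 as lower at an edgeR adjusted p below 0.1, beside 11.8% and 12.5% of all genes tested. CPM are counts scaled to the normalized size of a library. Markers of primitive endoderm (6 genes) summed to 5.07 to 6.19 CPM in WT and 4.78 to 14.5 CPM in KO EpiLCs, mesendoderm (4 genes) to 5.95 to 6.49 and 8.64 to 11.7 CPM, trophoblast (4 genes) to 3.58 to 6.04 and 3.56 to 5.49 CPM, and fibroblasts (4 genes) to 5.75 to 8.06 and 3.09 to 4.21 CPM. Neural markers (4 genes) summed to 35.2 to 43.7 CPM in WT and 28.5 to 31.5 CPM in KO EpiLCs, a sum made up mostly of Tubb3, which fell from 32.7 ± 4.45 to 21.4 ± 1.60 CPM (SD, n = 3) as Sox1 fell and Neurod1 rose. Of the other lists, Gata6 (endoderm) and Eomes (mesendoderm) rose and Thy1 (fibroblasts) fell. Gata4, Sox7, Foxa2, Cdx2, Elf5, Gata3, Pax6, T, Mixl1, Gsc, Col1a1 and Col3a1 were too low to be tested. The part of these markers in the results was not tested, and in bulk RNA fewer cells of a type cannot be told apart from less RNA per cell.

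Of the 10 regulators, 8 had a lower mean and 2 a higher mean in KO EpiLCs. At an adjusted p below 0.1 over the 15746 genes tested, 7 passed as lower (Atf4, Atf3, Cebpb, Nupr1, Trib3, Chac1 and Ddit4) and 1 as higher (Sesn2), beside 12.5% of all genes tested that passed as lower and 11.8% as higher. With the replicate number as a block, Atf5 passed as well, in a fit that called 15.3% of all genes tested as lower and 15% as higher. In 6 of the 10 every KO library lay below every WT library, which 17.1% of all genes tested did, and in none did every KO library lie above, which 16.6% did. All 10 passed the filter on low counts. The median log2 fold change of the 10 was −0.85, against 0.0014 over all genes tested. Since this contrast chose the genes, nothing is read from these counts.

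**Figure D1:**
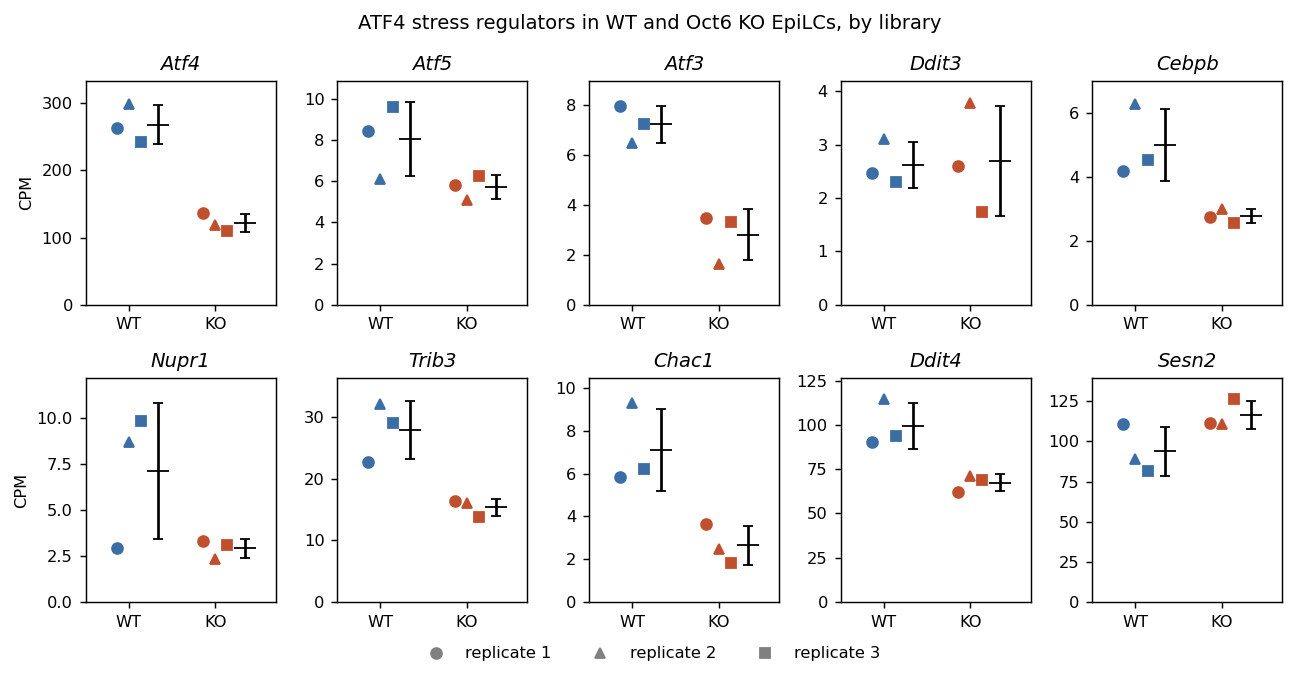
Level of each of the 10 regulators, in CPM (counts scaled to library size, vertical axes from 0), in 3 WT and 3 KO EpiLC libraries; symbols give the replicate number, and the bar beside each group is the mean ± SD (n = 3). Atf4, Atf3, Cebpb, Trib3, Chac1 and Ddit4 have no overlap between the groups, Nupr1 overlaps through WT replicate 1, and Ddit3 and Sesn2 show no decrease.

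Atf4 (ENSMUSG00000042406.9, chromosome 15 of GRCm39, 80139372 to 80141745) encodes the central bZIP activator of the response. Positions here and below are those of the whole gene on this build. WT replicates 1, 2 and 3 held 263, 299 and 243 CPM of it, and the KO replicates in the same order held 137, 119 and 109.5 CPM. No KO library came near the lowest WT library. WT EpiLCs averaged 268 ± 28.5 CPM (SD, n = 3) and KO EpiLCs 122 ± 13.7 CPM, which is 0.453 times the WT level (log2 fold change −1.14, SE 0.11). The gap between the groups was far wider than the spread within either of them. The 193 other tested genes within 5 Mb of Atf4 had a median log2 fold change of −0.069, so its neighbours were not shifted as it was.

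Atf5 (ENSMUSG00000038539.16, chromosome 7, 44461680 to 44466082), the closest relative of Atf4 and likewise translated under stress, was expressed at a far lower level. It had 8.43, 6.11 and 9.61 CPM in WT libraries and 5.83, 5.09 and 6.24 CPM in KO libraries. WT replicate 2 was lower than KO replicate 3, so the groups overlapped, although KO was below WT in each of the 3 pairs. The log2 fold change was −0.50 (SE 0.21), which did not pass the threshold without the replicate block.

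Atf3 (ENSMUSG00000026628.14, chromosome 1, 190902493 to 190950241) encodes a stress-induced bZIP factor that mostly represses transcription. It stood at 7.99, 6.48 and 7.24 CPM in WT libraries and at 3.48, 1.62 and 3.31 CPM in KO libraries, with no overlap and with the lowest value in KO replicate 2. The log2 fold change was −1.37 (SE 0.26). Cebpb (ENSMUSG00000056501.4, chromosome 2, 167530835 to 167532338), which encodes a C/EBP factor able to pair with ATF4, had 4.18, 6.30 and 4.53 CPM in WT libraries and 2.75, 3.01 and 2.56 CPM in KO libraries. The groups did not overlap, and the log2 fold change was −0.84 (SE 0.26). Without WT replicate 2, the highest library, it was −0.66 and no longer passed the threshold.

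Ddit3 (ENSMUSG00000025408.16, chromosome 10, 127124268 to 127132163) encodes CHOP, the bZIP factor tied to cell death in prolonged stress. Only 33, 34 and 34 counts fell on it in the WT libraries and 32, 49 and 23 in the KO libraries, which is 2.46, 3.10 and 2.30 CPM against 2.59, 3.78 and 1.73 CPM. The highest and the lowest values both came from KO libraries, and the log2 fold change was 0.05 (SE 0.32). Without KO replicate 2 it was −0.27 and without KO replicate 3 it was 0.29, so that no direction can be given for Ddit3 at this depth. In the annotation used here, 82.4% of the exon bases of Ddit3 lie under exons on the opposite strand, chiefly those of Mars1, and another entry of the same name overlaps it and is listed at 0 counts. The sources used here do not say whether counting used the strand, so the level of Ddit3 is uncertain in a way that those of Atf4, Atf3, Nupr1, Trib3, Chac1, Ddit4 and Sesn2, with 0% of exon bases covered by another gene's exons, are not. For Atf5 and Cebpb 8.36% and 20.7% were covered on the opposite strand.

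Nupr1 (ENSMUSG00000030717.10, chromosome 7, 126222414 to 126230033) encodes a small chromatin protein induced by many stresses. Its WT libraries were far apart, at 2.91, 8.67 and 9.81 CPM, whereas the KO libraries lay close together at 3.32, 2.31 and 3.08 CPM. WT replicate 1 was thus at the KO level, and KO exceeded WT in pair 1 (ratio 1.14) but not in pairs 2 and 3 (0.267 and 0.314). The log2 fold change was −1.29 (SE 0.34), and −1.67 without WT replicate 1.

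Trib3 (ENSMUSG00000032715.10, chromosome 2, 152179337 to 152191958) encodes a pseudokinase that restrains ATF4 and CHOP. The WT libraries held 22.8, 32.0 and 28.9 CPM and the KO libraries 16.3, 15.97 and 13.7 CPM, without overlap, and its log2 fold change was −0.86 (SE 0.15). Chac1 (ENSMUSG00000027313.4, chromosome 2, 119180757 to 119184866) encodes an enzyme that degrades glutathione. It had 5.82, 9.31 and 6.22 CPM in WT and 3.65, 2.47 and 1.81 CPM in KO libraries. Its log2 fold change was −1.42 (SE 0.28), within the error of those of Atf3 and Nupr1. Both genes had their highest WT value in replicate 2 and their smallest difference in pair 1.

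Ddit4 and Sesn2 encode REDD1 and sestrin 2, which restrain the growth kinase mTORC1 by separate routes, and here their levels differed in opposite directions. Ddit4 (ENSMUSG00000020108.5, chromosome 10, 59785491 to 59788492) measured 90.4, 114 and 93.6 CPM in the WT libraries, all above the 62.3, 71.0 and 68.9 CPM of the KO libraries. Its log2 fold change was −0.56 (SE 0.11). Sesn2 (ENSMUSG00000028893.9, chromosome 4, 132219335 to 132237815) measured 111, 88.9 and 81.7 CPM in the WT libraries and 112, 111 and 127 CPM in the KO libraries, with a log2 fold change of 0.31 (SE 0.11). The KO to WT ratio of Sesn2 was 1.005, 1.25 and 1.55 in pairs 1 to 3, and its groups overlapped because WT replicate 1 was at the KO level. Sesn2 passed the threshold in 8 of 13 alternative fits and did not with library totals alone (0.29). Its call was also lost when WT replicate 2 (0.27) or 3 (0.22), or KO replicate 1 (0.34) or 3 (0.25), was left out. Atf5 passed in 2 of 13, with the block and without WT replicate 2 (−0.66).

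**Figure D2:**
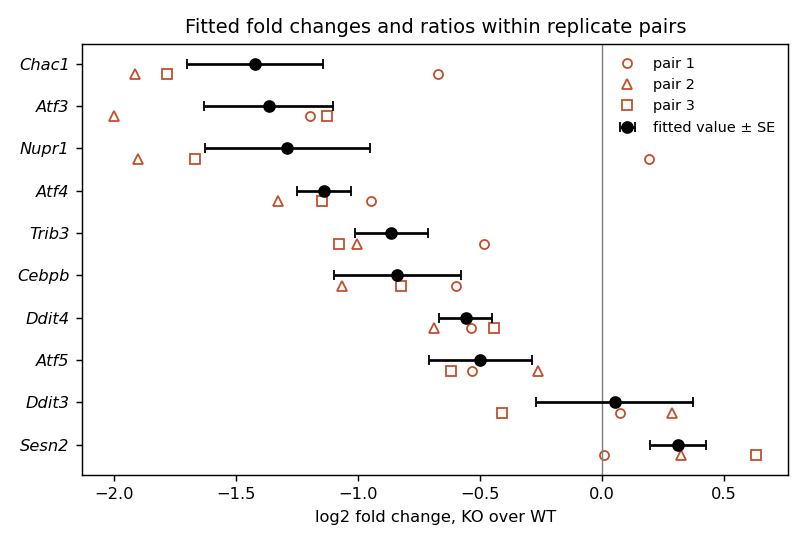
Log2 fold change of KO over WT EpiLCs (horizontal axis) for the 10 regulators, ordered by size; black points are fitted values ± SE from all 6 libraries, and open symbols are the ratios within each pair of replicates with the same number. Chac1, Atf3, Nupr1 and Atf4 lie below −1, Ddit3 straddles 0 and Sesn2 lies above it. In pair 1 Nupr1 is above 0, and the open symbols of Chac1, Atf4, Trib3 and Cebpb are closest to 0.

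Levels of different genes were compared per kilobase of exon, counting the exons of every annotated transcript. This length was 1504 bases for Cebpb, 2441 for Atf3, 2594 for Chac1, 3831 for Nupr1 and 5579 for Ddit3. Before division by it, the mean KO levels of these genes lay between 2.64 and 2.91 CPM. Their order per kb in KO EpiLCs thus follows the lengths, and which transcripts the cells used was not determined. Atf4 stood first, with 113 ± 12.0 CPM per kb (SD, n = 3) in WT and 51.2 ± 5.77 in KO EpiLCs. Ddit4 came next in WT EpiLCs with 36.7 ± 4.80 CPM per kb, followed by Sesn2 with 20.7 ± 3.38. In KO EpiLCs these levels, 24.8 ± 1.68 for Ddit4 and 25.7 ± 1.94 for Sesn2, did not differ beyond their spread. Trib3 followed, with 8.24 ± 1.39 CPM per kb in WT and 4.52 ± 0.418 in KO EpiLCs. Atf5 (3.74 ± 0.826), Cebpb (3.33 ± 0.754), Atf3 (2.96 ± 0.309) and Chac1 (2.74 ± 0.735) were within each other's spread in WT EpiLCs. Nupr1 (1.86 ± 0.965) had a lower mean, but its spread reached those of Chac1, Atf3 and Cebpb, and Ddit3 (0.470 ± 0.0760) was last. In KO EpiLCs the order of these 6 was the same, from 2.66 ± 0.271 CPM per kb for Atf5, 1.84 ± 0.150 for Cebpb, 1.15 ± 0.422 for Atf3 and 1.02 ± 0.359 for Chac1 to 0.759 ± 0.138 for Nupr1 and 0.484 ± 0.184 for Ddit3. Atf3, Chac1 and Nupr1 did not differ there beyond their spread, and neither did Chac1, Nupr1 and Ddit3.

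The promoters were searched from 500 bases before to 50 bases after the start of the canonical transcript, since ATF4 acts through a short element. The core CARE, searched as TGATGNAA on either strand, was found in 4 of the 10 promoters, those of Atf3, Ddit3, Chac1 and Sesn2, and in 7.22% of the 21614 promoters of protein coding genes. The matches are printed below from GRCm39 on the strand of the gene, with the element in capitals, because they occur in genes that were lower (Atf3, Chac1), without a clear direction (Ddit3) and higher (Sesn2) in KO EpiLCs. They start 103, 199, 159 and 256 bases before the transcript start of Atf3, Ddit3, Chac1 and Sesn2.
Atf3, chr1:190915618-190915655, minus strand: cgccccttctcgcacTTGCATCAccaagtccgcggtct
Ddit3, chr10:127126346-127126383, plus strand: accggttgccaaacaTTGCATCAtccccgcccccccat
Chac1, chr2:119181515-119181552, plus strand: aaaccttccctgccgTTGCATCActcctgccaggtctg
Sesn2, chr4:132238049-132238086, minus strand: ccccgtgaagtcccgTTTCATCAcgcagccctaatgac
The first 3 carry the same 8 letters, TTGCATCA, and Sesn2 has TTTCATCA. Among 43 promoters of the ATF4 target genes listed below, 11 (25.6%) held the CARE core. The cyclic AMP response element TGACGTCA (2.71% of all promoters), the octamer ATGCAAAT bound by POU factors such as OCT6 (2.96%) and the ER stress element (0.139%) were found in 0 of the 10 promoters. A match is a stretch of letters and not a measured binding site, and a missing match says only that these letters are not in this window.

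The genes around these regulators were then taken by role. Upstream of ATF4, none of the mRNAs of the 4 eIF2 kinases passed in either direction (0 also at an unadjusted p below 0.05 and with DESeq2). Kinase activity and phosphorylation of eIF2 were not measured. The haem-regulated kinase Eif2ak1 had a log2 fold change of 0.08, the double-stranded RNA kinase Eif2ak2 0.10, the ER kinase PERK (Eif2ak3) −0.19 and the amino acid sensor GCN2 (Eif2ak4) −0.12, with adjusted p between 0.248 and 0.747. Eif2ak3 lies in a part of chromosome 6 that was lower as a whole, with a median of −0.55 among the 54 tested genes within 5 Mb. The subunit of eIF2 that is phosphorylated, Eif2s1, had 484 ± 27.9 CPM (SD, n = 3) in WT and 514 ± 48.4 CPM in KO EpiLCs. Ppp1r15a (GADD34), the stress-induced subunit that returns eIF2 to its unphosphorylated form and is itself a target of ATF4, fell from 25.9 ± 4.22 to 18.1 ± 1.93 CPM (log2 fold change −0.52, SE 0.15, edgeR adjusted p = 0.0164). Its constitutive counterpart Ppp1r15b fell by 0.28 on the log2 scale (SE 0.096, adjusted p = 0.0462), a call lost without WT replicate 2 or any of the KO libraries. Eif2b5, a subunit of the eIF2B exchange factor, rose (log2 fold change 0.42, SE 0.099, adjusted p = 0.0056), and it lies on chromosome 16, whose 471 tested genes had a median of 0.55. In all, 2 of the 17 upstream genes passed as lower and 1 as higher (11.8% and 5.88%), against 12.5% and 11.8% of all genes tested, Ppp1r15a being counted there and among the ATF4 targets.

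Of 42 tested genes of the ATF4 target lists, 20 (47.6%) fell and 0 rose, beside 12.5% and 11.8% of all genes tested. At an unadjusted p below 0.05, 24 were lower and 0 higher (15.2% and 14.5% of all genes tested), and DESeq2 gave 20 and 0 (9.9% and 9.44% of all genes). Phgdh passed as higher without WT replicate 2, and Ero1a without WT replicate 3. Without WT replicate 2, 14 fell, and with the replicate block 24, beside the 15.3% of all genes that this fit called as lower. Asns, Gars1 and Mthfd2 lie in the lowered part of chromosome 6, where genes within 5 Mb had medians between −0.53 and −0.52, and among the 39 target genes outside chromosomes 6 and 16, 17 fell. The lists were written with earlier results of these data known.

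**Figure D3:**
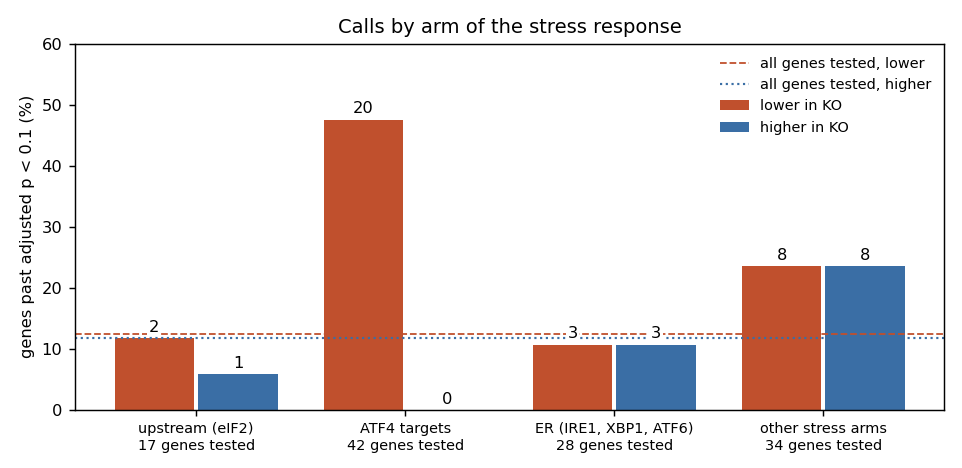
Percentage of tested genes past an adjusted p of 0.1 (vertical axis from 0) as lower or higher in KO EpiLCs for each arm of the stress response, with the number of genes above each bar and the share of all genes tested as horizontal lines. The ATF4 targets stand at 47.6% lower and 0% higher, while the upstream and ER arms stay below the lines.

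Amino acid synthesis had the highest share of lower genes among the 4 ATF4 target lists, with 9 of 11 (81.8%). Of all genes tested 12.5% passed as lower, and the median log2 fold change of the list was −0.58. Mthfd2, a mitochondrial enzyme of one-carbon metabolism, fell from 166 ± 21.6 to 80.9 ± 7.26 CPM (log2 fold change −1.03, SE 0.11, edgeR adjusted p = 4.1e-06). Asparagine synthetase (Asns) fell from 326 ± 31.9 to 198 ± 3.93 CPM (−0.72, SE 0.098, adjusted p = 4.1e-05). Both genes lie on chromosome 6, and how much of their change goes with its shift was not tested. Aldh18a1, the first enzyme of proline synthesis from glutamate (chromosome 19), fell from 81.3 ± 7.66 to 47.3 ± 3.39 CPM (−0.78, SE 0.11, adjusted p = 5e-05). Psat1, of the serine pathway, fell by 0.58 on the log2 scale (SE 0.11, adjusted p = 0.0012), whereas Phgdh and Psph, which act before and after it in that pathway, did not pass (adjusted p of 0.336 and 0.99).

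Among 9 amino acid transporters 3 fell (33.3%) and 0 rose, beside 12.5% of all genes tested that passed as lower and 11.8% as higher. Slc7a11, the cystine carrier that feeds glutathione synthesis, had 12.5, 10.9 and 15.6 CPM in WT libraries and 3.89, 2.47 and 2.48 CPM in KO libraries. With a log2 fold change of −2.15 (SE 0.23, edgeR adjusted p = 3.4e-06) it changed more than any of the 10 regulators, and its promoter held both a CARE core and an octamer. That octamer was the only one in the 43 target promoters (2.33%), near the 2.96% of all promoters. The 33 tested genes within 5 Mb of Slc7a11 on chromosome 3 had a median of −0.46. Slc6a9, the glycine carrier GLYT1, fell by 1.38 on the log2 scale (SE 0.38, adjusted p = 0.0153), a call lost without WT replicate 2, and Slc7a5 fell by 0.30 (SE 0.10, adjusted p = 0.0419), a call lost without WT replicate 2, KO replicate 1 or KO replicate 2. Of the 12 tRNA synthetases, 6 fell (50%) and 0 rose. Among those lower were Gars1 (−0.81, SE 0.095, on chromosome 6), Sars1 (−0.53, SE 0.11), Iars1 (−0.48, SE 0.11) and Aars1 (−0.34, SE 0.097). Of 10 tested stress effectors, 2 fell (20%), Ppp1r15a and the lipoprotein receptor Vldlr (−0.97, SE 0.27, adjusted p = 0.0156). With the replicate block 4 fell, in a fit that called 15.3% of all genes tested as lower. Fgf21 was too low to be tested.

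**Figure D4:**
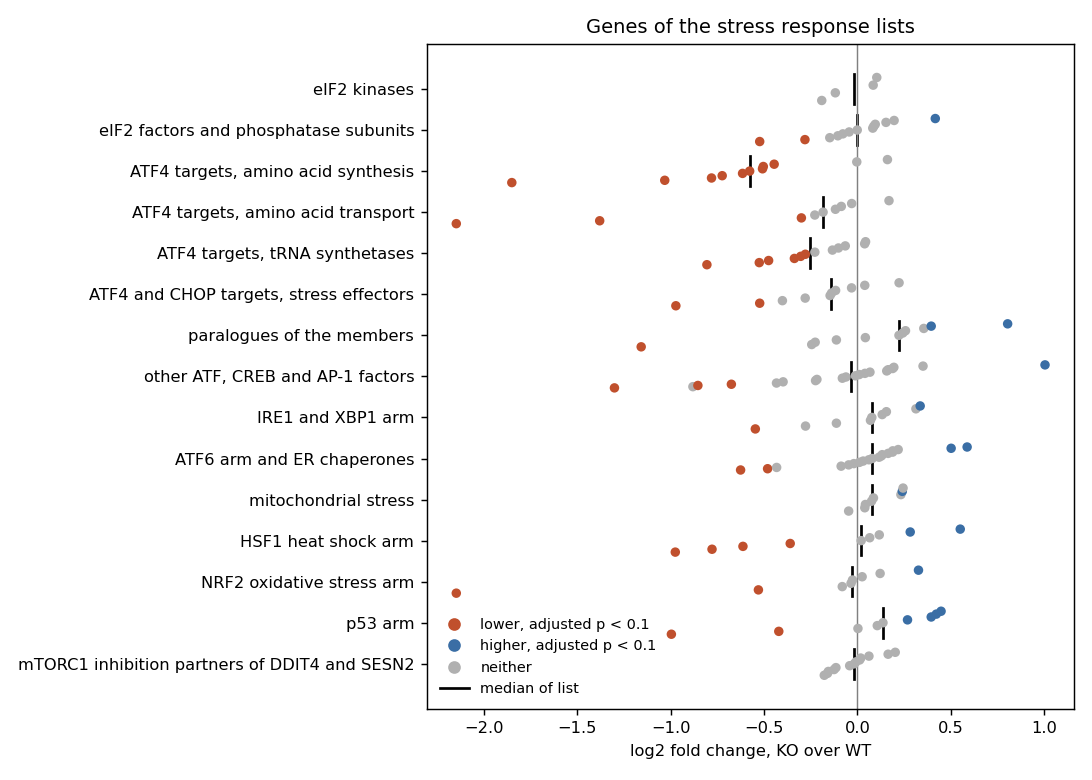
Log2 fold change of KO over WT EpiLCs (horizontal axis) for each tested gene of the 15 lists; colours mark genes past an adjusted p of 0.1 and the black bar is the median of a list. The median of the amino acid synthesis list is −0.58, and those of the eIF2, ER, mitochondrial and mTORC1 lists lie between −0.02 and 0.08.

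Of 11 tested relatives of the 10 regulators, 1 was lower and 2 higher (9.09% and 18.2%), near the 12.5% and 11.8% of all genes tested. Their median log2 fold change was 0.22. Jdp2, a relative of Atf3 that represses AP-1 sites, fell from 4.43 ± 0.908 to 1.97 ± 0.903 CPM (−1.16, SE 0.32, edgeR adjusted p = 0.0161). Trib2, a relative of Trib3, rose from 15.5 ± 0.206 to 27.0 ± 3.20 CPM (0.80, SE 0.14, adjusted p = 3.3e-04), in a part of chromosome 12 whose 45 tested genes within 5 Mb had a median of 0.38, while Trib1 had 13.6 ± 0.730 and 11.4 ± 1.62 CPM. Sesn1, a sestrin better known as a p53 target, rose from 31.3 ± 3.62 to 41.2 ± 1.66 CPM (0.39, SE 0.12, adjusted p = 0.0242), a call lost without WT replicate 1, and Sesn3 had 70.2 ± 10.6 and 72.4 ± 2.70 CPM. Ddit4l, the relative of Ddit4, had a log2 fold change of 0.35 (SE 0.15) with an adjusted p of 0.112, and 0.0409 with the replicate block. Chac2, Cebpa, Cebpd, Cebpg and Nupr2 had log2 fold changes of 0.24, 0.22, −0.11, −0.23 and 0.26 and did not pass, Cebpd lying on chromosome 16. Cebpe was too low to be tested. Among 20 other ATF, CREB and AP-1 factors 3 fell and 1 rose (15% and 5%), near the shares of all genes tested. Junb, an immediate-early AP-1 factor, fell from 27.8 ± 1.82 to 11.3 ± 0.800 CPM (−1.30, SE 0.14, adjusted p = 3.8e-06). Jund fell by 0.67 on the log2 scale (SE 0.13), with 52.6% of its exon bases under opposite-strand exons. Creb3l4 (−0.85) and Creb3l2 (1.00) passed with adjusted p of 0.0549 and 0.0568 but not with DESeq2. The call of Creb3l4 was also lost without WT replicate 1, KO replicate 1 or KO replicate 2. That of Creb3l2 was lost without WT replicate 2, WT replicate 3 or KO replicate 3. Creb3l2 had 15 to 51 counts per library and lies on chromosome 6, where the 60 tested genes within 5 Mb had a median of −0.49.

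The ER branches that run beside PERK were near the background, with 3 of 28 genes lower and 3 higher (10.7% each way). The mRNAs of their sensors and central factors did not pass, and a count per gene does not measure the activity of the proteins. The IRE1 kinase gene Ern1 had 10.6 ± 0.679 CPM (SD, n = 3) in WT and 11.2 ± 1.63 in KO EpiLCs, Xbp1 had 69.1 ± 7.06 and 76.8 ± 5.32, Atf6 had 37.9 ± 2.46 and 42.5 ± 1.72, and the chaperone BiP (Hspa5) had 770 ± 48.0 and 803 ± 78.9. Outside chromosomes 6 and 16, only 1 of 24 genes fell, Herpud1, which serves ER-associated degradation (−0.63, SE 0.17, edgeR adjusted p = 0.0159, lost without WT replicate 2 or KO replicate 3), and 1 rose, Sec24d, a coat protein of ER export (0.34, SE 0.10, adjusted p = 0.0281, lost without KO replicate 1). On chromosome 6, Pdia4 fell (−0.48) in a stretch with a median of −0.49 among the genes within 5 Mb, and Edem1 fell (−0.55) where that median was only −0.16. On chromosome 16, Dnajb11 (0.59) and Sdf2l1 (0.50, lost without WT replicate 1) rose in stretches with medians of 0.56 and 0.51.

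The other stress arms held calls in both directions, 8 lower and 8 higher among 34 genes (23.5% each way), against 12.5% of all genes tested as lower and 11.8% as higher. The higher calls were 4 without KO replicate 1, 5 without KO replicate 2 and 10 with the replicate block. That last fit called 15% of all genes tested as higher. Of 9 heat shock genes 4 fell and 2 rose. The inducible HSP70 gene Hspa1b fell from 54.9 ± 7.13 to 27.9 ± 4.54 CPM (−0.97, SE 0.13, edgeR adjusted p = 4.3e-05), with its near-identical copy Hspa1a at −0.78 (SE 0.22), between which counting could divide reads. Dnajb1 fell by 0.61 on the log2 scale (SE 0.10), whereas the co-chaperone Bag3 rose (0.55, SE 0.19, adjusted p = 0.0503), a call lost without WT replicate 1, WT replicate 3 or KO replicate 2. Of 8 genes of the NRF2 list 2 fell, Slc7a11 again and haem oxygenase (Hmox1, −0.53, SE 0.12, adjusted p = 0.0031), and Srxn1 rose (0.33, SE 0.10, adjusted p = 0.031, lost without KO replicate 3). Of 9 genes of the p53 list 2 fell and 4 rose. The cell cycle inhibitor p21 (Cdkn1a) fell from 22.8 ± 3.65 to 11.4 ± 2.18 CPM (−0.996, SE 0.17, adjusted p = 3.2e-04), and the p53 regulator Mdm2 rose from 310.1 ± 65.5 to 423 ± 25.1 CPM (0.45, SE 0.12, adjusted p = 0.0135). Trp53inp1 rose as well (0.42, SE 0.12, adjusted p = 0.0199), a call lost without KO replicate 1. Of 8 mitochondrial stress genes 1 passed, the chaperonin Hspd1 (0.24, SE 0.097, adjusted p = 0.0963), a call lost in 9 of 13 alternative fits, among them those without WT replicate 1, WT replicate 2 or any of the KO libraries. With the replicate block 3 of the 8 rose, beside the 15% of all genes tested that this fit called as higher. They were Hspd1 (edgeR adjusted p = 0.0216), the protease gene Yme1l1 (0.0358) and Clpp (0.0827). None of the 13 genes of the mTORC1 brake and its partners, through which REDD1 and sestrin 2 act, passed in either direction (0 also at an unadjusted p below 0.05 and with DESeq2).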

How the data were processed

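Total RNA of 6 EpiLC libraries was sequenced as paired-end reads after removal of ribosomal RNA with a stranded kit. The deposited values are raw counts per Ensembl gene: the authors used Fastp for trimming and STAR, in 2-pass mode on GRCm39, for both mapping and counting. Versions, annotation release and strand setting are not given in the sources used here. The unknown strand setting also bears on other named genes with exon bases under opposite-strand exons. Among these are Hspa5 (44.2%), Slc6a9 (33.9%), Trib2 (32.2%), Eif2s1 (31.1%) and Eif2ak1 (28.6%). Identifiers were matched to GENCODE M39 (54749 of 55416). Symbols shared by several identifiers went to the one with the most counts, which concerned 76 others. The 10 members and all lists were chosen with earlier results of these data known.

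Counts were tested in R 4.3.3 with edgeR 4.0.16 (TMM, filterByExpr with a minimum count of 10, quasi-likelihood F test, a single term for genotype). P-values were adjusted by Benjamini-Hochberg over 15746 genes, with a threshold of 0.1. SEs were derived from F. CPM are relative to TMM-normalized library sizes. The procedure was also run on simulated counts, and no call here rests on that run. The named genes were the 10 members, Pou3f1, a fixed set of sensors, central factors and relatives, and up to 4 genes of each list past the threshold with the smallest p; Phgdh, Psph, Fgf21, Ero1a, Yme1l1, Clpp and the markers were named after their values were seen. Alternatives were DESeq2 1.42.0, RLE or library-total scaling, other filters, a threshold of 0.05, a replicate block, omission of chromosomes 6 and 16, and leaving out every library once.

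The series description calls replicates paired, and deviations from the group means over 13078 genes correlated at 0.257, 0.298 and 0.122 between libraries with the same number and from −0.233 to −0.0379 otherwise (a description across genes, which are not independent). Deviations cancel out within a group, so the negative values follow in part from the positive ones and are no separate evidence of pairing. Libraries of a group were not copies, with a chi-square per degree of freedom of 6.94 or more. Precision is limited by 3 libraries per group and, for members at a few CPM, by low counts (21 to 145 per library).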

Additional observations from a re-analysis of the deposited data

How the results depend on the processing

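The direction of 9 of the 10 regulators was the same in all 13 alternative fits, Ddit3 being the exception with log2 fold changes from −0.27 to 0.29. Atf4 ranged from −1.23 to −1.06 and Chac1 from −1.73 to −1.20. Cebpb no longer passed the threshold without WT replicate 2. Sesn2 passed in 8 of 13. Among 38 named other genes past the threshold, 0 changed direction and 25 passed in every fit that could test them. The ATF4 targets had 20 lower calls, and 14 to 21 with a library left out, against 0 higher and 0 to 1. Over all genes, 1969 lower calls became 1574 to 1860 and 1864 higher calls 1433 to 1930, and with the replicate block they were 2407 and 2357. The small counts moved more. With a library left out, the upstream genes had 1 to 2 lower (1 where Ppp1r15b was lost) and 1 to 2 higher calls (2 without WT replicate 3), the ER genes 2 to 3 lower and 2 to 3 higher, and the other stress arms 6 to 8 lower and 4 to 6 higher. Without chromosomes 6 and 16, where fewer genes are tested, the ER genes had 1 lower and 1 higher call and the upstream genes 0 higher. In that fit the other stress arms, which have 0 tested genes on either chromosome, had 5 higher calls. The other stress arms also had 5 higher calls with library totals alone and 4 at an adjusted p below 0.05. With the replicate block the upstream genes had 2 higher calls and the regulators 8 lower calls; it changed no other call of a regulator, while the ATF4 targets had 24 lower calls, the ER genes 4 higher and the other stress arms 10 higher. Causes were not tested. Depth limits Atf5, Atf3, Ddit3, Cebpb, Nupr1 and Chac1, with 21 to 145 counts per library.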

Other observations

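The libraries of a genotype differed among themselves in the ATF4 programme and in other lists, a pattern that was seen in the values and not planned. In WT EpiLCs, replicate 2 held the highest level for 28 of the 42 tested ATF4 target genes (66.7%) and for 6 of the 10 regulators, Atf4, Trib3, Chac1, Cebpb, Ddit4 and Ddit3, whereas it was the highest WT library for 32% of all genes tested. For the tRNA synthetases it was highest in 11 of 12, for amino acid synthesis in 9 of 11, for transporters in 5 of 9 and for stress effectors in 3 of 10. The IRE1 and XBP1 list, outside the ATF4 targets, was likewise highest in WT replicate 2 for 7 of 9 genes. In KO EpiLCs, replicate 1 held the highest level for 20 of the 42 tested ATF4 target genes (47.6%), beside 33.5% of all genes tested. The same library was highest for 5 of the 10 regulators, Atf4, Atf3, Nupr1, Trib3 and Chac1. Of the 12 tRNA synthetases, 11 were highest in KO replicate 1. The other target lists did not share this, with 4 of 11 synthesis genes, 3 of 9 transporters and 2 of 10 stress effectors highest in KO replicate 1. Of the stress effectors 7 of 10 were highest in KO replicate 3. The ATF6 and ER chaperone list, in contrast, was highest in KO replicate 1 for 14 of 19 genes. Genes of a list share a library, so these counts describe libraries and carry no test.

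Of the 9 genes of the p53 list, 6 were highest in replicate 1 in WT EpiLCs and 8 in replicate 1 in KO EpiLCs. Replicate 1 was the highest for 34.5% of all genes tested in WT and 33.5% in KO EpiLCs. Among the WT libraries replicate 1 also had the lowest Nupr1, Trib3, Chac1, Cebpb and Ddit4 levels and the highest Sesn2 and Atf3 levels. Its Atf4, Atf5 and Ddit3 levels lay between those of the other WT libraries.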
